A study of Mus musculus with 3 samples.

Results

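ON cone bipolar cells are the retinal interneurons that carry signals of light increments from cones to ganglion cells. The ON cone bipolar cells described here were chosen by measured values. A barcode with 500 to 6000 detected genes and 1 to 20% mitochondrial unique molecular identifiers (UMIs, each counting 1 captured RNA molecule) entered if it had a UMI of at least 2 of the ON bipolar genes Grm6, Trpm1 and Isl1. It also needed at least 2 of the cone bipolar genes Scgn, Cabp2, Cck, Reln, Kcnb2, Cntn5 and Vsx1, and could have at most 2 of the rod bipolar genes Prkca, Car8, Sebox, Vstm2b and Cacna2d3. The gate found 141 cells among 5400 kept barcodes. There were 54 of 1713 in the young library (3.15%, 95% exact binomial interval 2.38 to 4.09%), 48 of 1974 in the adult library (2.43%, 1.8 to 3.21%) and 39 of 1713 in the old library (2.28%, 1.62 to 3.1%).

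The cells came from a study of ageing retinal vessels in C57BL/6JRj mice. Retinas were dissociated, vessel fragments were pelleted, and cells carrying CD31, an endothelial surface protein, were enriched with magnetic beads before droplet-based 3′ single-cell RNA sequencing. Bipolar cells are therefore cells carried along in an endothelial preparation. Each age is 1 library of pooled retinas from 2 animals. The young animals were 3, the adult ones 12 and the old ones 23 months of age, and no transgene or treatment is named. The age of the animals and the library cannot be told apart, and the share of ON cone bipolar cells reflects what passed the enrichment as well as the tissue.

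The libraries held 2491 to 3243 barcodes and 16577026 to 19977238 UMIs, and the median kept cell had 5993 to 6375 UMIs. The median ON cone bipolar cell had 5569 UMIs in young, 5729 in adult and 5494 in old mice, and the 3 sums were 321908, 285807 and 217416 UMIs. No ON cone bipolar barcode occurred in more than 1 library, although 4 barcodes were shared between libraries over all droplets. Levels below are CPM, the UMIs of a gene scaled to a total of 1000000 UMIs over the summed cells. Intervals of levels, ratios and shares are exact, at 95%, and cover counting error only.

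In darkness, cones release glutamate, which closes the Trpm1 channel of ON bipolar cells through the metabotropic receptor mGluR6, encoded by Grm6. Light lowers glutamate, the channel opens and the cell depolarises. The receptor works through the G protein Gαo (Gnao1) with its partners Gnb3 and Gng13. Nyctalopin (Nyx) is needed to place the Trpm1 channel, Gpr179 anchors the regulators of the G protein, and a complex of Rgs7, Rgs11 and Gnb5 speeds the return of Gαo to rest. Rod bipolar cells share this cascade, whereas OFF cone bipolar cells receive glutamate through ionotropic receptors. ON cone bipolar cells comprise several types that end at different depths of the inner retina.

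The label was checked first on the gate genes, which are a description, since they chose the cells. Grm6 had a UMI in 134 of 141 cells (95%), Trpm1 in 134 and Isl1, a LIM homeodomain factor, in 136. Of the cone bipolar genes, Reln was found in 121 cells, Scgn in 104, Kcnb2 in 92, Vsx1 in 87, Cabp2 in 86, Cck in 65 and Cntn5 in 64. Prkca, the protein kinase that marks rod bipolar cells, had a UMI in 4 cells and Sebox in 1, while Cacna2d3, also on the rod list, had one in 90. Grm6 had a UMI in 91.7% of rod bipolar cells and 1.02% of endothelial cells, whose median depth was 8316 to 9325 UMIs.

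Genes outside the gate were read beside the other classes. Gnb3 was detected in 140 cells, Gng13 in 136, the homeodomain factor Otx2 in 120 (85.1%), Gpr179 in 114 (80.9%), Rgs11 in 97, Pcp2 in 67 and Nyx in 51. Rod bipolar cells had these genes too, Gnb3 in 100% and Gpr179 in 95.3% of cells, so they do not separate the cone class from rod bipolar cells. OFF cone bipolar cells had Gnb3 in 35.2%, Gpr179 in 19.8% and Otx2, a factor of bipolar cells of either sign, in 83.5% of cells, and endothelial cells had Gnb3 in 3.4%, Gpr179 in 1.15% and Otx2 in 1.15%. Of the genes used to gate OFF cone bipolar cells, Neto1 and Tacr3 had no UMI and the kainate receptor gene Grik1 had one in 4 cells and Fezf2 in 1, while Lhx3 went the other way, with a UMI in 33 ON cone bipolar cells (23.4%) beside 30.8% of OFF and 1.98% of rod bipolar cells. Lrit3, a partner of nyctalopin, had no UMI in any ON cone bipolar cell. At the edges of the gate, 122 cells had all 3 ON genes and 19 had 2. 15 cells had exactly 2 cone bipolar genes, and 32 had the full 2 rod bipolar genes allowed. Just outside it, 45 cells missed only for having 1 ON gene, 9 for having 1 cone bipolar gene and 4 for having 3 rod bipolar genes.

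RNA on marker lists of other cell types was present and uneven. An endothelial list of 8 genes (Cldn5, Pecam1, Flt1 and others) summed to 154, 78 and 17 UMIs in the young, adult and old cells, and a mural list to 22, 127 and 9. A cone photoreceptor list summed to 609, 289 and 293 UMIs, and a rod list to 605, 370 and 237. Of the 1191 cone list UMIs, 816 were Gngt2, and 479 of the 1212 rod list UMIs were Gngt1, with 161 in subcluster 4 and 269 in subcluster 7. The amacrine list had 1 UMI in all, with Gad1, Gad2 and Slc6a9 among its genes. Cells with at least 50 UMIs of the endothelial, mural or cone photoreceptor list were 6 in all. In the young library, 2 cells had 91 and 58 endothelial UMIs, another had 245 cone photoreceptor UMIs and a further one 67. In the adult library, 1 cell had 63 endothelial and another 113 mural UMIs. The rod list was not part of this cut and reached 50 UMIs in 2 young and 1 adult cell. Among the 6 only the young cell with 245 cone photoreceptor UMIs did so, at 93, and the other cells were kept throughout. The doublet caller Scrublet marked 1 of these 6 and no other ON cone bipolar cell. Where an age call changed without them, both values are given.

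The next comparison asks what separates ON cone bipolar cells from rod bipolar cells, which share the ON cascade. The 253 rod bipolar cells had at least 2 ON genes and at least 3 of the 5 rod bipolar genes. ON cone bipolar cells had much more RNA of the AMPA receptor subunit Gria2, the electrical synapse protein connexin 36 (Gjd2), the receptor phosphatase Ptprz1 and the adhesion molecule Pcdh9, and almost none of Tpbg, Tmem196 or Adamts5. The sums of UMIs of each class in each library were compared with edgeR's quasi-likelihood test, with the library as a block. All gate genes were left out of the calls. At an adjusted p under 0.05, 629 of 6553 genes tested were higher (9.6%) and 690 were lower (10.5%). The classes were selected on RNA of the same cells, so genes that go together with gate genes differ in part by construction.

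**Figure D1:**
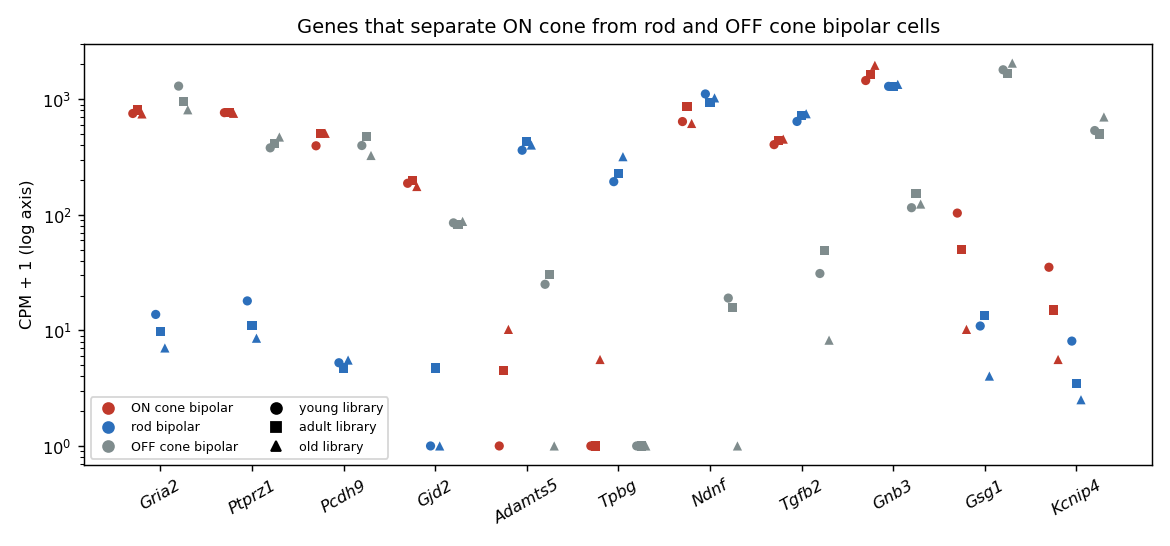
Levels of 11 genes in CPM plus 1 on a log axis, by gene, for ON cone bipolar, rod bipolar and OFF cone bipolar cells; each point is the sum of 1 class in 1 library and the marker shape gives the library. Gria2, Ptprz1, Pcdh9 and Gjd2 separate ON cone from rod bipolar cells in all 3 libraries, and Ndnf, Gnb3, Gsg1 and Kcnip4 separate them from OFF cone bipolar cells.

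Gria2 stood at 752, 805 and 745 CPM in young, adult and old ON cone bipolar cells, against 12.7, 8.71 and 6.05 CPM in rod bipolar cells (pooled ratio 83.4, interval 53.6 to 138, adjusted p = 1.2e-19 in edgeR's quasi-likelihood test with Benjamini-Hochberg adjustment; chr3:80681450-80802835 in GRCm38). Ptprz1 stood at 764, 763 and 754 CPM, against 17, 9.95 and 7.56 CPM, and Pcdh9 at 395, 504 and 506 CPM, against 4.25, 3.73 and 4.53 CPM. For these genes, which were picked by rank and direction, every library of one class lay far from every library of the other. The log2 fold changes, here and below ± SE, were 5.77 ± 0.19 for Ptprz1 and 6.50 ± 0.24 for Pcdh9. The zinc finger gene Zfp536 had 214, 241 and 294 CPM, against 1.42, 3.73 and 0 CPM (log2 fold change 6.66 ± 0.36).

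Gjd2, whose protein forms the gap junctions through which AII amacrine cells drive ON cone bipolar cells, had 186, 196 and 175 CPM in ON cone bipolar cells. In rod bipolar cells it had 3 UMIs in all, a ratio of 135 with a counting interval of 45.4 to 662. A long noncoding transcript, A530058N18Rik, starts beside it on the other strand. It had 485, 661 and 589 CPM, against 11.3, 7.47 and 7.56 CPM (log2 fold change 5.77 ± 0.21). The 2 RefSeq start sites are 54 bases apart, and the GENCODE gene models overlap by 18 bases (chr2:114009601-114013619, minus strand, for Gjd2 and chr2:114013602-114032292, plus strand, for A530058N18Rik). Whether the counting used strand is not given in the sources used here.

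The 250 bases before each of these starts are shown because both members of the pair stand apart in the same direction, together with those of Tgfb2, which separates ON from OFF cone bipolar cells below. The sequences are RefSeq's, in GRCm38.p6, 5′ to 3′ on the gene's own strand. Capitals mark TAATCC or its reverse complement GGATTA, the core letters bound by OTX2 and CRX.
Gjd2, chr2:114013620-114013869, minus strand: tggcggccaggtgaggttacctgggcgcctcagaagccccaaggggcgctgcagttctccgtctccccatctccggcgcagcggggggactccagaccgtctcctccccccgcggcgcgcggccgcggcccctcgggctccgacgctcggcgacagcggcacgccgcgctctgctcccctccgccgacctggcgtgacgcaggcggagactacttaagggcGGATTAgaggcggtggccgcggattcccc
A530058N18Rik, chr2:114013315-114013564, plus strand: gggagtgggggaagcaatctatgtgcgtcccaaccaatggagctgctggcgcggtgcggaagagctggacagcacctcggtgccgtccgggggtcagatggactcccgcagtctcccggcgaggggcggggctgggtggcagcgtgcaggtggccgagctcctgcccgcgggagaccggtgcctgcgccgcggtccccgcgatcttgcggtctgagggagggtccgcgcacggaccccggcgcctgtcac
Tgfb2, chr1:186705990-186706239, minus strand: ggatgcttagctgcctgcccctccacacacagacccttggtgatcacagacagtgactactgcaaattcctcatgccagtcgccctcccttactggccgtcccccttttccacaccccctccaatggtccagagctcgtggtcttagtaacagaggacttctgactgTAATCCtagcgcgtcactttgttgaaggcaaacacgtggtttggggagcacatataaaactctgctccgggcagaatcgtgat
The letters began 29 bases before the start in Gjd2 and 83 bases before it in Tgfb2, and the A530058N18Rik window held none. TAATCC on either strand was found in 6.9% of the 493 promoters matched to the 629 higher genes, 5.01% of the 519 matched to the 690 lower genes, 5.85% of the 5217 matched to all genes tested and 7.16% of all 27025 RefSeq promoters. Each window searched ran from 250 bases before to 50 after the start. TAATTA, core letters bound by many homeodomain factors, was in 2.03%, 1.16%, 2.11% and 5.31% of the same sets. A match is a description of the letters, not of binding.

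Among the other genes farthest higher, Lrp1b, a large lipoprotein receptor relative, had 143, 133 and 189 CPM and no UMI in rod bipolar cells, which makes it at least 110-fold higher against the level of 3 counts over the class. Ryr2, the ryanodine receptor, had 149, 171 and 184 CPM, against 4.25, 1.24 and 0 CPM. Sulf1, which trims sulfate from heparan chains, had 127, 147 and 212 CPM, against 0, 3.73 and 0 CPM, and the noncoding Snhg11 had 454, 476 and 345 CPM, against 1.42, 6.22 and 6.05 CPM. Genes named by rank, here and below, had to go the same way in all 3 libraries, so that sameness is no added evidence.

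In the other direction, Tmem196 had no UMI in ON cone bipolar cells and 132, 148 and 148 CPM in rod bipolar cells, at least 39.3-fold lower. Tpbg, a leucine-rich membrane glycoprotein, had 1 UMI in 141 cells and 193, 225 and 317 CPM in rod bipolar cells, a ratio of 200 with an interval of 35.8 to 7924. Adamts5, a protease of the extracellular matrix, had 0, 3.5 and 9.2 CPM, against 361, 429 and 401 CPM (log2 fold change -6.90 ± 0.32, adjusted p = 4.1e-16 in edgeR's quasi-likelihood test). None of these genes overlapped between the classes, but their choice by rank and direction favours that. Lrrtm4, a synaptic organiser, had 0, 0 and 13.8 CPM, against 255, 240 and 243 CPM, Il1rap, the interleukin 1 receptor accessory protein, 0, 10.5 and 0 CPM, against 290, 270 and 246 CPM, and the β1 adrenergic receptor Adrb1 12.4, 0 and 0 CPM, against 296, 319 and 305 CPM.

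**Figure D2:**
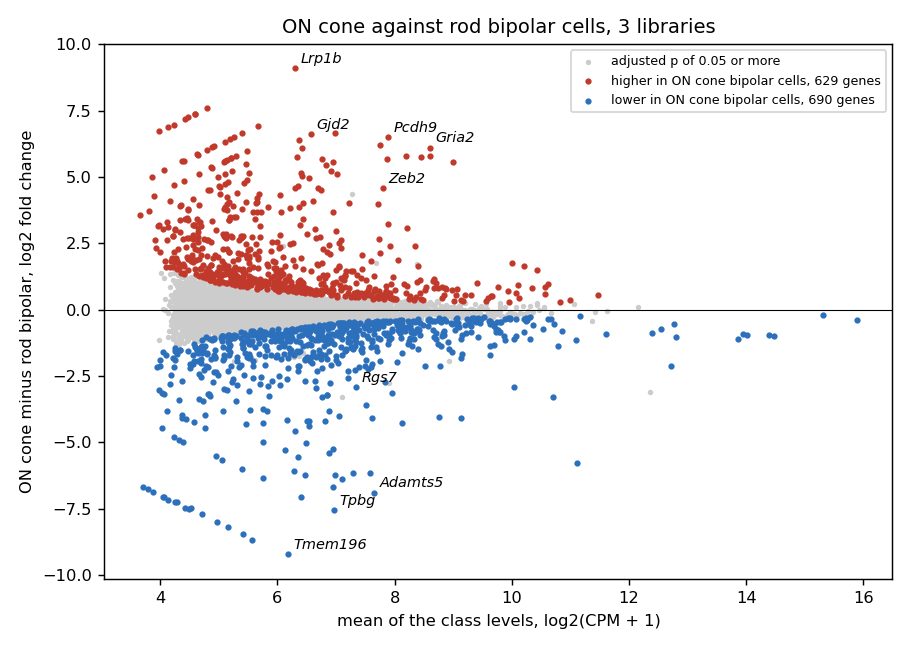
Log2 fold change of ON cone against rod bipolar cells (vertical axis) by the mean level of the classes in log2(CPM + 1), 1 point per gene tested over 3 libraries. Red marks the 629 genes higher and blue the 690 genes lower at an adjusted p under 0.05. Points in diagonal rows at the top and bottom left are genes with no UMI in one class.

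Of the 12 ON cascade genes, 11 were tested, none was higher and 4 were lower, beside 10.5% of all genes tested, with a median log2 fold change of -0.12, beside -0.01 over all genes. Rgs7, a regulator that speeds the return of Gαo to rest, had 46.6, 38.5 and 46 CPM, against 326, 234 and 277 CPM (log2 fold change -2.92 ± 0.20, adjusted p = 1.3e-12 in edgeR's quasi-likelihood test). Its partner Rgs11, which does the same work, did not pass the test. Gnao1 was lower by a log2 fold change of -1.11 ± 0.10, Gpr179 of -0.94 ± 0.13 and Gng13 of -0.54 ± 0.08. Pcp2, a modulator of Gαo, had 1448, 1707 and 722 CPM against 8189, 9288 and 10253 CPM, yet did not pass (adjusted p = 0.057 in the same edgeR test). Its level also differed widely among the subclusters below. Whether that bears on the missed call was not tested.

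Receptors for the inhibitory transmitters GABA and glycine, which amacrine and horizontal cells release, were mostly higher. Of 10 tested, 7 were higher and 2 lower, beside 9.6% and 10.5% of all genes tested, with a median log2 fold change of 0.85. The same background holds for the lists that follow. Gabrr3, a ρ subunit of slow ionotropic GABA receptors, had 77.7, 80.5 and 124 CPM, against 1.42, 3.73 and 7.56 CPM (log2 fold change 4.19 ± 0.39). It was higher in every library. The metabotropic subunits Gabbr1 and Gabbr2 were higher by log2 fold changes of 1.71 and 4.79, while the ρ subunit Gabrr1 was lower, -0.80 ± 0.14, as was the glycine receptor subunit Glra1, -2.35 ± 0.40.

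Of 5 glutamate receptor genes tested, Gria2 was higher and Gria1 was lower. Of 9 ion channel genes tested, 2 were higher and 2 lower. The T-type calcium channel gene Cacna1h had 211, 227 and 152 CPM, against 4.25, 12.4 and 3.02 CPM (log2 fold change 4.57 ± 0.30), and the auxiliary subunit Cacna2d1 was higher by 2.47 ± 0.31. Among 16 ribbon synapse genes, 6 were higher and 6 lower. Cplx4, a complexin that restrains vesicle fusion, was higher (4.03 ± 0.65, adjusted p = 0.035 in edgeR's quasi-likelihood test), while Cplx3, its close relative, was lower (-0.56 ± 0.09) and the priming factor Unc13b was lower (-1.11 ± 0.14).

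Adhesion genes moved both ways, with 10 of 20 tested higher and 7 lower. The cadherins Cdh8, at 165, 164 and 161 CPM against 1.42, 6.22 and 3.02 CPM, and Cdh9, at 83.9, 98 and 64.4 CPM against 0, 0 and 1.51 CPM, were higher. So was Tenm2, by a log2 fold change of 5.47, whereas Cntn4 was lower, at 49.7, 17.5 and 27.6 CPM against 524, 509 and 550 CPM. Dscam had no UMI in ON cone bipolar cells and was at least 16.7-fold lower.

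Among transcription factors of bipolar cells, 5 of 13 tested were higher and 4 lower. Zeb2 stood at 429, 577 and 285 CPM, against 11.3, 18.7 and 15.1 CPM, and Six3 at 323, 413 and 511 CPM, against 63.7, 70.9 and 60.5 CPM. Prdm8 was lower, at 65.2, 91 and 23 CPM, against 207, 284 and 283 CPM. The immediate early gene Egr1 was higher by 2.43 ± 0.25 on the log2 scale, with 2 other genes of its list of 9 tested lower. All 13 mitochondrial mRNAs were lower, with a median log2 fold change of -0.91. The median mitochondrial share of UMIs was 8.62, 9.45 and 8.1% in ON cone bipolar cells and 15.9, 16.3 and 13.4% in rod bipolar cells, near the upper limit of the filter, so every CPM in the rod bipolar class is taken over a total with more mitochondrial UMIs.

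Of the cone photoreceptor list, 3 genes were tested and 2 were higher than in rod bipolar cells. Gngt2, the γ subunit of cone transducin, had 1010, 836 and 1159 CPM, against 22.7, 11.2 and 19.6 CPM (log2 fold change 5.56 ± 0.16). It had a UMI in 108 of 141 cells (76.6%), beside 4.74% of rod bipolar cells at a higher median depth of 7579.5 to 8468 UMIs and 23.2% of endothelial cells. Gnat2, the α subunit, had 174, 112 and 166 CPM, against 4.25, 3.73 and 7.56 CPM, and a UMI in 60 cells (42.6%). The same genes were at 961 to 1130 and 216 to 225 CPM in OFF cone bipolar cells, and neither passed the test between ON and OFF cone bipolar cells (adjusted p = 0.905 for Gngt2 and 0.095 for Gnat2 in edgeR's quasi-likelihood test).

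The comparison with OFF cone bipolar cells describes what separates cells gated on ON genes from cells gated on OFF genes. The 91 OFF cone bipolar cells (28, 39 and 24 by library) had at least 2 of Grik1, Neto1, Tacr3, Lhx3 and Fezf2 and at most 1 of the ON genes. ON cone bipolar cells had more of the cascade's G protein subunits and regulators, of Ndnf, Cnmd, Lin7a and Tgfb2, and less of Gsg1, Kcnip4, Pde1a and several adhesion genes. The same test called 239 of 4590 genes higher (5.21%) and 225 lower (4.9%). Both comparisons share the ON cone bipolar sums, so their calls are not independent. Here too, genes that go together with gate genes differ in part by construction.

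Ndnf, a secreted factor, had 640, 861 and 616 CPM, against 18, 14.8 and 0 CPM in OFF cone bipolar cells (log2 fold change 5.89 ± 0.31, adjusted p = 5.6e-78 in edgeR's quasi-likelihood test; chr6:65671590-65712326). Gnb3 had 1451, 1637 and 1964 CPM, against 114, 151 and 123 CPM (3.68 ± 0.18). Tgfb2, a ligand of the TGF-β family, had 404, 437 and 451 CPM, against 30.1, 48 and 7.23 CPM (3.74 ± 0.27). In each of these genes, picked by rank and direction, the lowest ON library stood above the highest OFF library. Against rod bipolar cells Ndnf and Tgfb2 were lower, by -0.78 ± 0.11 and -0.95 ± 0.11 on the log2 scale.

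Cnmd, which encodes chondromodulin, had 127, 178 and 207 CPM and no UMI in OFF cone bipolar cells, at least 31.9-fold higher. Lin7a, a PDZ scaffold of synapses, had 183, 192 and 212 CPM and no UMI, at least 37.2-fold higher. The ryanodine receptor Ryr3 had 177, 147 and 147 CPM, against 6.01, 18.5 and 7.23 CPM.

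In the other direction, Gsg1 had 103, 49 and 9.2 CPM, against 1797, 1673 and 2052 CPM (log2 fold change -4.96 ± 0.22). Kcnip4, a subunit that modulates A-type potassium channels, had 34.2, 14 and 4.6 CPM, against 535, 499 and 701 CPM (-4.82 ± 0.27). The phosphodiesterase Pde1a had no UMI in ON cone bipolar cells and 216, 148 and 166 CPM in OFF cone bipolar cells, at least 47.3-fold lower. For all 3 genes the classes did not overlap in any library, which their choice by rank and direction favours. Nxph1, Lrrtm3 and Lamp5 also had no UMI in ON cone bipolar cells and were at least 39.7-, 32.5- and 33.5-fold lower.

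**Figure D3:**
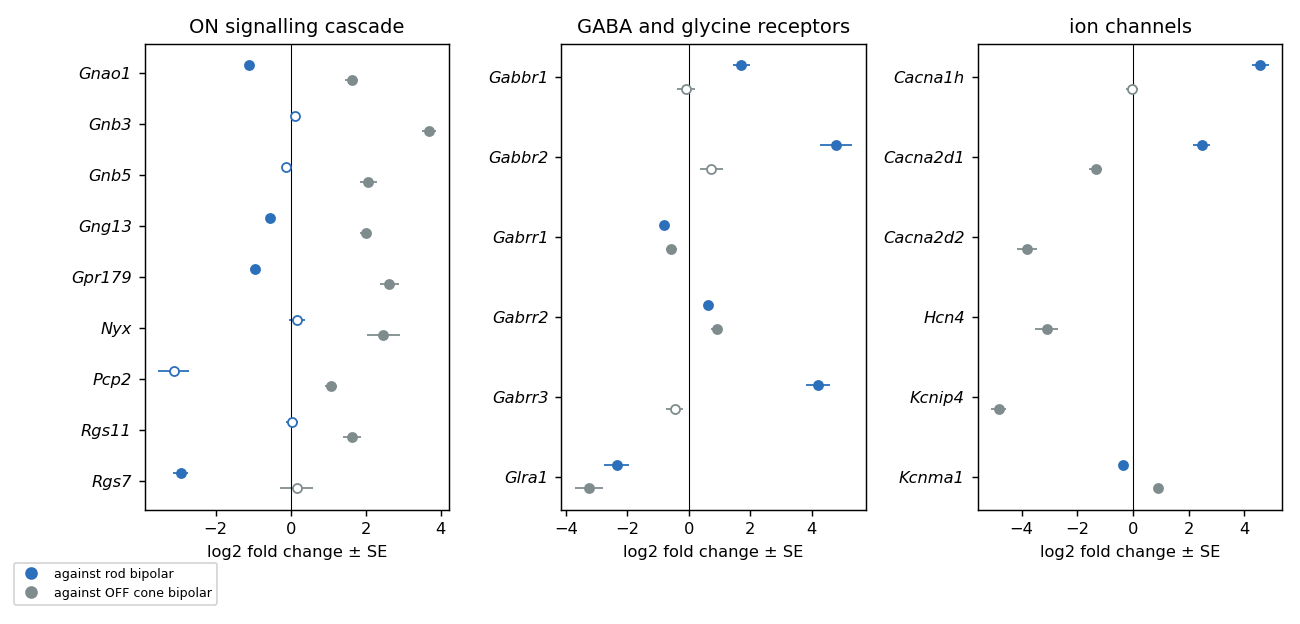
Log2 fold change ± SE of ON cone bipolar cells against rod bipolar cells (blue) and OFF cone bipolar cells (grey) for genes of 3 lists that are described in the text; filled circles passed an adjusted p under 0.05 and open circles did not. The cascade genes lie near or below 0 against rod bipolar cells and mostly above 1 against OFF cone bipolar cells.

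Of 11 cascade genes tested, 8 were higher than in OFF cone bipolar cells and none lower, beside 5.21% and 4.9% of all genes tested. Their median log2 fold change was 1.63, beside 0.00 over all genes. The gates set the classes apart on Grm6 and Trpm1 of the same cascade, so this difference arises in part by construction. Gpr179 was higher by 2.63 ± 0.25, Nyx by 2.47 ± 0.43 and Gnb5 by 2.07 ± 0.22 on the log2 scale. Gng13 had 5119, 6123 and 7626 CPM, against 1683, 1344 and 1763 CPM (pooled ratio 3.97, interval 3.7 to 4.27). Rgs7, low in ON cone bipolar cells against rod bipolar cells, was not called against OFF cone bipolar cells.

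Of the glutamate receptor list, 5 genes were tested outside the gate and 2 were lower, with none higher, beside 4.9% and 5.21% of all genes tested. Grik1 and Neto1 of this list are OFF gate genes and were left out. The NMDA receptor subunit Grin2b had 1 UMI in ON cone bipolar cells and 42.1, 103 and 93.9 CPM in OFF cone bipolar cells. The AMPA subunit Gria1 was lower by -1.65 ± 0.37 on the log2 scale. Gria2, which was called higher in ON cone than in rod bipolar cells, stood at 1298, 960 and 809 CPM in OFF cone bipolar cells. Against these cells it did not pass (log2 fold change -0.37 ± 0.15, adjusted p = 0.096 in edgeR's quasi-likelihood test).

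Of 10 receptor genes for GABA and glycine tested against OFF cone bipolar cells, 1 was higher and 3 were lower, beside 5.21% and 4.9% of all genes tested here and for the lists that follow. Gabrr2, a ρ subunit, was higher at 478, 469 and 382 CPM, against 301, 225 and 210 CPM, and Glra1 was lower at 9.32, 10.5 and 13.8 CPM, against 138, 114 and 72.3 CPM. Among channels, the large-conductance potassium channel Kcnma1 was higher, at 1159, 1337 and 1039 CPM against 619, 842 and 477 CPM. Hcn4, a pacemaker channel, was lower at 12.4, 14 and 13.8 CPM, against 144, 99.7 and 123 CPM, and Cacna2d2 at 28, 3.5 and 9.2 CPM, against 258, 129 and 246 CPM.

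Transcription factors divided, with 3 of 12 tested higher and 4 lower. Bhlhe23 stood at 83.9, 112 and 124 CPM, against 12, 11.1 and 0 CPM. Nfib, at 37.3, 24.5 and 18.4 CPM against 343, 336 and 448 CPM, Lhx4, at 109, 66.5 and 36.8 CPM against 445, 480 and 622 CPM, and Irx6, at 15.5, 28 and 46 CPM against 162, 162 and 195 CPM, were lower. Of 19 adhesion genes tested, 4 were higher, with Cdh9 the farthest (3.00 ± 0.50), and 8 lower, among them Cntn4 (-3.03 ± 0.28). Of 16 ribbon synapse genes, 2 were higher, Cplx4 by 0.94 and Cplx3 by 0.42 on the log2 scale, and 1 was lower, Pclo by -0.50. No mitochondrial gene was called of 13 tested, with a median of -0.05. Egr1 was higher again, at 242, 255 and 110 CPM against 6.01, 29.5 and 50.6 CPM.

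Calls between classes rest on 3 libraries that differ in age. With the library as a block, their p-values weigh the class difference against how much it varied from library to library, not against the spread between libraries. Of 1319 calls against rod bipolar cells, 1043, 835 and 1038 were kept without the young, adult or old library, and of 464 against OFF cone bipolar cells 336, 278 and 341 were kept. No called gene changed direction.

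ON cone bipolar cells were not uniform. Clustering of the 141 cells gave 7 subclusters of 33, 30, 22, 18, 18, 14 and 6 cells, which are numbered and described by their leading genes with no test, since the same genes formed them. Cck, a neuropeptide gene, and Tnnt1, which encodes a slow-muscle troponin, were high in subclusters 1 and 3, at 2754 and 3357 CPM for Cck and 1118 and 1270 CPM for Tnnt1. Subcluster 1 was led by Cnmd, at 484 CPM and in 84.8% of its cells. Subcluster 3 was led by Cck itself, followed by low-level genes such as Tomm40l. It held 21 cells of the old library, 1 of the adult and none of the young, so it may be that library and not a type.

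Subcluster 2 held all 90 UMIs of Igfn1 in ON cone bipolar cells, an immunoglobulin-domain gene, and was led also by Palld, in 73.3% of its cells beside 0.901% of the others, and the muscarinic receptor Chrm3. It held 5 of the 6 cells with RNA of other cell types. Subcluster 4 was led by the homeodomain factor Meis2, at 572 CPM and in 94.4% of its cells beside 3.25%, by Nfia and by Sox6, and carried Cabp5 at 1596 CPM. Subcluster 5 held 115 of the 125 Lrp1b UMIs, with Lrp1b in all 18 of its cells, and was led also by Cntnap5a, Cpne9 and Tenm1. The high Lrp1b level of the class against rod bipolar cells thus came from a small part of it.

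Subcluster 6 was led by Ryr3, at 950 CPM, and had the highest Gjd2 and Gria2 levels of the 7, at 515 and 1096 CPM, with Reln at 1663 and Trpm1 at 3880 CPM, at a low median depth of 3903 UMIs. Subcluster 7, with 4 young, 2 adult and no old cells, went against the label in part. Its 6 cells had no UMI of Trpm1, Vsx1, Reln or Kcnb2 and entered through Grm6 and Isl1, while Gsg1, high in OFF cone bipolar cells, stood at 1132 CPM and had a UMI in all of them. It was led by Gas1, with 23 UMIs beside none in the other cells, and by the muscarinic receptor Chrm2. Gngt1, the rod transducin γ subunit, was at 8012 CPM there.

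Some genes were shared across subclusters and others were split. Gria2 was found at 328 to 1096 CPM in every subcluster and Gjd2 at 89.4 to 515 CPM. Pcp2 divided them, at 2985, 2752 and 4497 CPM in subclusters 2, 4 and 7 and 72.3, 16.5 and 26.4 CPM in subclusters 1, 3 and 6, with subcluster 5 at 378 CPM. Without centring on the library, subclusters 2, 4, 5 and 7 came back cell for cell, while 23 cells of subcluster 1 and 21 of subcluster 3 fell together into a cluster of 10 young, 13 adult and 21 old cells. Another 10 cells of subcluster 1 and 1 of subcluster 3 fell together with the 14 cells of subcluster 6. The divisions of subcluster 1 from 3 and from 6 depended on the centring. Subclusters 1 and 3 are pooled below as the Cck subclusters, these 11 cells included. Values outside them include subcluster 6, where Cck had a UMI in 64.3% and Tnnt1 in 71.4% of cells, and the 6 cells with other RNA.

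**Figure D4:**
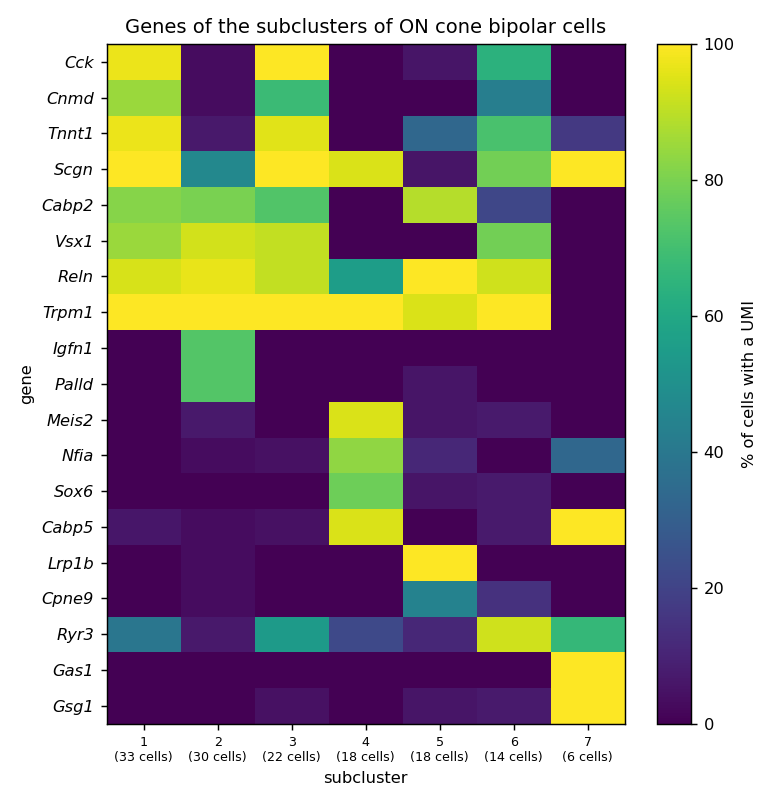
Share of cells with a UMI, in percent, for 19 genes in the 7 subclusters of ON cone bipolar cells, pooled over libraries. Cck and Tnnt1 are found in most cells of subclusters 1, 3 and 6. Igfn1 marks subcluster 2, Meis2 subcluster 4, Lrp1b subcluster 5 and Gas1 subcluster 7, whose cells have no Trpm1. Ryr3, in 92.9% of subcluster 6, is also found in 66.7, 54.5 and 39.4% of subclusters 7, 3 and 1.

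The study's design compared ages. With 1 library per age there is no test, no p-value and no replicate check, and the values describe these libraries. Old ON cone bipolar cells had more Cck, Tnnt1, Gng13 and Cplx3 and less Cabp5, Pcp2 and Igfn1 than young ones. The ages had different shares of their cells in the subclusters, and outside subclusters 1 and 3 the old to young ratio of Pcp2 was 0.894 (interval 0.74 to 1.08). Of 3353 genes with at least 30 UMIs over the young and old sums, 290 were past 1.5-fold higher in the old cells (8.65%) and 368 lower (11%). Between adult and young, 282 (7.53%) and 319 (8.52%) of 3743 genes were past it, and between old and adult 267 (8.54%) and 355 (11.3%) of 3128.

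Cck had 758, 1004 and 1900 CPM in young, adult and old cells, an old to young ratio of 2.51 (interval 2.13 to 2.95). It is a gate gene, so this is a description. A Cck UMI was found in 20 of 54 young cells (37%, 24.3 to 51.3%), 21 of 48 adult cells (43.8%, 29.5 to 58.8%) and 24 of 39 old cells (61.5%, 44.6 to 76.6%). After each cell was thinned to 2000 UMIs, leaving out 1 young and 1 old cell, the shares were 35.8, 37.5 and 60.5%, and in endothelial cells the share was 0.212%. The Cck subclusters held 14, 18 and 23 cells, or 25.9, 37.5 and 59% of the class, and within them the old to young ratio of Cck was 1.13 (0.958 to 1.34). These subclusters were pooled as those high in Cck, which draws this ratio towards 1, so it does not show where the age difference lies.

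Tnnt1 had 261, 472 and 883 CPM (84, 135 and 192 UMIs), an old to young ratio of 3.38 (2.61 to 4.43). Within the Cck subclusters it had 836, 1242 and 1338 CPM, and the ratio was 1.6 (1.19 to 2.18). Outside them, from 21 young and 27 old UMIs, it was 3.37 (1.83 to 6.27), and in rod bipolar cells 1.78 (1.05 to 3.09). The other genes named for the highest ratios had 10 to 16 UMIs in the young cells and 20 to 29 in the old. Among them, Grhpr, an enzyme of glyoxylate metabolism, had 11, 20 and 27 UMIs (ratio 3.63, 1.74 to 8.12), the scaffold Mapk8ip2 11, 19 and 27, and the mitochondrial ribosomal protein Mrps34 10, 24 and 24 UMIs (3.55, 1.64 to 8.33).

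**Figure D5:**
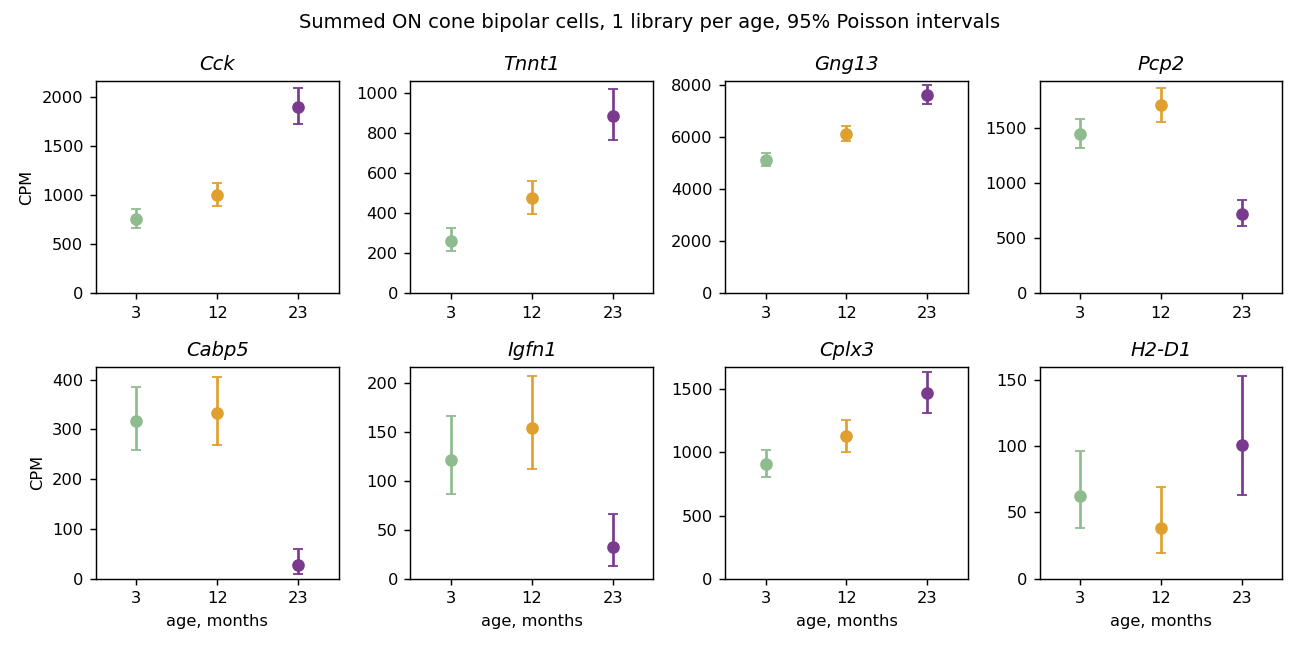
CPM of 8 genes in the ON cone bipolar cells of the young, adult and old library, each point the sum of 1 library with its exact 95% Poisson interval, which covers counting error only. Cck, Tnnt1, Gng13 and Cplx3 are highest in the old library, and Pcp2, Cabp5 and Igfn1 are lowest there.

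Of the genes lower in the old cells, 8 of the 10 with the lowest ratios belonged to other cell types or rested on few cells. Opn1sw, the short-wavelength cone opsin, had 91, 5 and 1 UMIs, of which 88 came from 1 young cell. The photoreceptor genes Pde6h and Guca1a had 63 and 44 UMIs in young cells, 54 and 35 of them in 1 cell. The endothelial Flt1 and Klf2 had 35 and 62, with 18 and 33 in 1 cell. Ptn and Id3, with 30 and 29 UMIs in young cells, had 16 and 22 in 1 cell. Without the 6 cells with other RNA these 7 genes had 0 to 3 UMIs each in young cells and 0 to 2 in old cells, too few for a ratio. Gsg1 had 33, 14 and 2 UMIs in 9 cells, with 38 of the 49 in subcluster 7, which held no old cell and went against the label in part, and 9 in subcluster 5. No age difference is read from these genes.

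Cabp5, a calcium-binding protein of bipolar cells, did not rest on mixed cells. It had 102, 95 and 6 UMIs (317, 332 and 27.6 CPM), an old to young ratio of 0.0871 (0.0312 to 0.196), and of 0.0748 without the 6 cells with other RNA. Outside the Cck subclusters it was 0.134 (0.0425 to 0.323), and in rod bipolar cells 1.02. Subclusters 4 and 7 held 134 and 61 of the 203 Cabp5 UMIs. Pcp4, a calmodulin regulator, had 60, 18 and 4 UMIs, of which 22 were in 1 cell. Igfn1 had 39, 44 and 7 UMIs (0.266, 0.1 to 0.601), and outside the Cck subclusters the ratio was 0.47 (0.177 to 1.06). Cabp5 was high in subcluster 4, which held 8 young, 8 adult and 2 old cells, and Igfn1 in subcluster 2, which held 14, 10 and 6. How much of each difference lies in the numbers of cells was not tested.

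Among the cascade genes, 10 were measured and 1 was past 1.5-fold in each direction, with a median log2 ratio of 0.21 beside 0.02 over all genes. Without the 6 cells none was past it higher and 1 lower, with a median of 0.07. Gng13 stood at 5119, 6123 and 7626 CPM, a ratio of 1.49 (1.39 to 1.6), and 1.21 within the Cck subclusters. Gnb3 had a ratio of 1.35 (1.18 to 1.55). Pcp2 stood at 1448, 1707 and 722 CPM, a ratio of 0.499 (0.414 to 0.599), with 13 and 2 of its 1111 UMIs in subclusters 1 and 3. Outside these subclusters the ratio was 0.894 (0.74 to 1.08), and no cascade gene was past 1.5-fold lower.

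Over all genes measured, 8.65% were past 1.5-fold higher and 11% lower, and several of the counts below, such as 1 of 8 or 1 of 13, lie near these shares. The GABA and glycine receptors had a median log2 ratio of -0.16 over 8 measured genes, with 1 past 1.5-fold each way, and without the 6 cells none was higher and 2 were lower. The ion channels had -0.19 over 8, with 2 lower, and 3 of 7 without the 6 cells. Of 14 ribbon synapse genes, 1 was past 1.5-fold higher and 1 lower, both complexins. Cplx3 had 910, 1127 and 1467 CPM (ratio 1.61, 1.37 to 1.9), and 1.66 (1.27 to 2.2) within the Cck subclusters, beside 1.44 in rod bipolar cells. Cplx4 had 339, 353 and 147 CPM (0.435, 0.284 to 0.65). It had no UMI in the Cck subclusters, and outside them the ratio was 0.769 (0.502 to 1.15), with none of 14 ribbon synapse genes past 1.5-fold lower. The mitochondrial mRNAs had a median of -0.09, with 1 of 13 past 1.5-fold lower, or 3 of 13 outside the Cck subclusters and none of 12 within them. The adhesion genes had a median of -0.11, with 1 of 13 lower, or 2 without the 6 cells. Outside the Cck subclusters the adhesion median was 0.27, with 2 of 10 higher and none lower. Of the 6 calcium-binding genes measured, 2 were past 1.5-fold higher and 1, Cabp5, lower, with a median of 0.34. Within the Cck subclusters none of 5 was past it (median 0.15), and outside them 1 of 6 was in each direction (0.14). Of 10 transcription factors measured, 2 were past it higher, or 1 without the 6 cells, and 3 lower, among them Nfia at 0.384 and Lhx4 at 0.338. Outside the Cck subclusters the transcription factor median was -0.58, with none of 8 higher and 4 lower, beside 0.07 in all cells. The markers of single bipolar types had a median of -1.49 over 5 genes, with 1 higher and 3 lower, and of -0.82 over 4 outside the Cck subclusters.

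Interferon genes were examined because the study concerned interferon signalling in senescent vessels. None of the 16 genes on the list reached 30 UMIs over the young and old ON cone bipolar cells, so none entered the count at this depth. Ifitm3 had 24, 1 and 1 UMIs and Isg15 2, 3 and 0. The class I antigen presentation genes H2-K1, at 55.9, 59.5 and 87.4 CPM, and H2-D1, at 62.1, 38.5 and 101 CPM, had ratios of 1.56 (0.776 to 3.16) and 1.63 (0.848 to 3.15), whose intervals include 1. Without the 6 cells H2-K1 had 4 UMIs in young and 19 in old cells, below the 30 needed, so its ratio of 6.04 (2.01 to 24.4) is not read. That of H2-D1 was 3.11 (1.37 to 7.67), from 9 and 22 UMIs, an interval that leaves out 1. Outside the Cck subclusters, where the 6 cells lie and are counted, the ratios were 0.491 (0.0917 to 1.72) and 0.349 (0.0388 to 1.5), with 3 and 2 UMIs in old cells, and no direction is read from them. In rod bipolar cells, from which no cells with other RNA were left out, the ratios were 2.49 and 3.32. The mural gene Vtn had 5, 107 and 166 UMIs there and Ifitm3 8, 35 and 52, while the endothelial Flt1 had 68, 52 and 70. How far RNA of other cells enters these ratios was not tested.

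Immediate early genes, which rise within minutes of stimulation or dissociation, had a median log2 ratio of -1.11, with 4 of 7 measured past 1.5-fold lower and none higher. Jun had 80, 24 and 9 UMIs, Junb 64, 24 and 11, Fosb 28, 19 and 4 and Egr1 78, 73 and 24. Without the 6 cells with other RNA, Jun, Junb and Fosb fell below 30 UMIs over young and old cells, at ratios of 0.88, 0.999 and 1.02. The 4 genes left had a median of 0.65, with 2 past 1.5-fold higher and 1, Egr1 at 0.587, lower. No direction is read for this list.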

How the data were processed

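Retinal cells of 3 libraries, 1 per age, were analysed from the deposited matrices of UMI counts per gene and barcode. According to the submitters' processing notes the authors made them with Cell Ranger 6.1.2 on mm10. Of the values, the counts were used as deposited and CPM, ratios and shares were computed from them. Kept barcodes had 500 to 6000 genes and 1 to 20% mitochondrial UMIs. Scrublet, run per library, marked 8, 17 and 12 barcodes (0.467 to 0.861%), and marked cells were kept in the values given unless stated.

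ON cone, rod and OFF cone bipolar cells were gated on detected genes. Classes were compared on UMIs summed per library with edgeR 4.0.16 (glmQLFit, glmQLFTest, TMM, filterByExpr, library as a block, Benjamini-Hochberg over all genes tested outside the gates). The edgeR step was tested on simulated counts. Ages, with 1 library each, were described by ratios of CPM with exact conditional intervals, for genes with at least 30 UMIs over both sums and a fold of 1.5. List medians used a pseudocount of 0.5. Folds against a class at 0 used 3 counts over the class. Subclusters came from Leiden clustering of library-centred log values of 1000 variable genes in scanpy 1.11.5.

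The members and gene lists were chosen with earlier results of these data known. Genes named by rank were the 10 farthest each way against rod bipolar cells, the 8 against OFF cone bipolar cells and the 10 for age. For the class comparisons they also had to be called, to go the same way in all 3 libraries and to have at least 100 CPM in the higher class. In each subcluster, named genes came from the 6 leading genes, the gates, the lists or the genes named by rank in a comparison. Gngt2, Gnat2 and Gngt1 are list genes, as are all others named by function. Alternatives were stricter limits and gates, DESeq2 1.42.0, no block, leaving out each library, thinning to 2000 UMIs and leaving out doublets or cells with RNA of other types. Gene positions are from GENCODE for GRCm38, promoters from RefSeq for GRCm38.p6. Some genes that met these rules are not reported here.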

Additional observations from a re-analysis of the deposited data

How the results depend on the processing

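No paired analysis was possible because the ages have 1 library each and share fewer than 2 replicate numbers. The fits between classes had the library as a block. With no block, 624 genes were higher and 669 lower than in rod bipolar cells, and 211 and 211 against OFF cone bipolar cells.

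With 1000 to 6000 genes and at most 10% mitochondrial UMIs, 88 ON cone bipolar cells, 34 rod and 55 OFF cone bipolar cells were left, with 150 genes higher and 197 lower against rod and 148 and 142 against OFF cone bipolar cells. DESeq2 called 310 and 312, and 60 and 93. Cells thinned to 2000 UMIs gave 233 and 292, and 74 and 64. Leaving out 1 library gave 410 to 568 higher and 465 to 627 lower against rod, and 138 to 215 and 156 to 217 against OFF cone bipolar cells. The lowest counts of higher genes, 410 and 138, came without the adult library. For age, the counts moved by over 1.5 times under 3 alternatives, each with fewer genes measured than the 3353. Thinned cells gave 112 higher and 101 lower of 1022, a minimum of 100 UMIs 33 and 30 of 845, and the Cck subclusters alone 108 and 72 of 1090. Outside these subclusters 255 and 275 of 2194 were past it.

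The immediate early median turned from -1.11 to 0.68 without cells with endothelial gate genes, 0.65 without the 6 cells with other RNA, 0.48 in thinned cells (1 gene) and 0.90 in the Cck subclusters (2 genes). Among the other 11 lists no median of at least 1.5-fold changed sign. Smaller medians did, with ion channels at -0.19 and 0.38 in the Cck subclusters, and outside them adhesion genes at 0.27 against -0.11 and transcription factors at -0.58 against 0.07. For genes named by rank, 151 age values stayed within the main value's interval, 15 moved, none reversed and 34 could not be measured, and 164 class calls were kept, 1 was lost, none reversed and 15 could not be tested. The thinned class comparisons and the alternatives without the 6 cells or by Cck subcluster were chosen after seeing the data.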
